A study of Mus musculus with 12 samples.

Results

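LSD1 and the genes of its CoREST complex were followed in mouse B cells with and without LSD1. The set was fixed by name: Kdm1a, which encodes the histone demethylase LSD1, its paralogue Kdm1b, and Rcor1, Rcor3, Hdac1, Hdac2, Hmg20b, Gse1 and Phf21a. Of these 9 genes, 8 were among the 9842 genes of the table, and Rcor3 was not analysed here. All 8 entered every test, because the table as a whole holds genes that reached 1 FPKM (fragments per kilobase of gene and M reads, M for mega) in at least 3 libraries. Each library was made from the RNA of 2000 sorted cells.

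The 12 libraries fell into 4 groups of 3, all from female C57BL/6J mice. TrB_WT and TrB_KO were transitional B cells, the recent emigrants from bone marrow, sorted from spleen without stimulation as B220+ CD93+ cells that lacked Thy1.1, F4/80 and CD11b. The eMZB_WT and eMZB_KO groups were marginal zone B cells made in culture from such cells over 3 days under BAFF, a survival factor, and DL1, a ligand of Notch, then sorted with the same exclusions as B220+ CD21+ CD1d+ cells. WT was wild type and KO was LSD1 knockout; the labels name neither the driver of the deletion, the deleted exons nor an age. Nothing in the labels ties replicates to separate animals, so p-values measure only how far these libraries spread, and that spread may be technical.

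LSD1 removes methyl groups from lysine 4 of histone H3 and thereby takes away a mark of active enhancers and promoters. On nucleosomes it works with RCOR1, also called CoREST, a scaffold that also carries the histone deacetylases HDAC1 and HDAC2, so that demethylation and deacetylation take place in the same complex. DNA-binding repressors such as GFI1 and BLIMP1 (Prdm1) bring LSD1 to their sites, and LSD1 has been studied in B cells on their way to plasma cells and marginal zone B cells.

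The genes stand apart in the genome and carry different start regions. In the mm10 (GRCm38) RefSeq annotation, Kdm1a lies on the minus strand of chromosome 4 from 136550533 to 136602787. Hdac1 is on the same chromosome and strand, from 129516104 to 129542646. Kdm1b is at chr13:47043373-47085279, Rcor1 at chr12:111039367-111115902, Hdac2 at chr10:36974297-37001889, Gse1 at chr8:120228501-120581383 and Phf21a at chr2:92183751-92364667, all on the plus strand, and Hmg20b is at chr10:81346046-81350943 on the minus strand. The gene length behind the FPKM, recovered from the steps of the values, was 3075 bases for Kdm1a, 2722 for Rcor1 and 1971 for Hdac1, below the 5179, 5684 and 3445 bases of their merged GENCODE exons. Which exons the counting used is not stated in the labels or notes. The 250 bases before the start of a listed RefSeq transcript are shown 5′ to 3′ for Kdm1a, the targeted gene, and for 3 others. These are Kdm1b, Hmg20b and Gse1, the 3 genes called lower in eMZB_KO than in TrB_KO. In wild type their log2 changes were also below 0 (-0.27, -0.11 and -0.38) but not called. For none of them was the change called different between the genotypes. For Hmg20b and Gse1, which have 3 listed starts each, the first is shown. The gene spans above run over all transcripts of a gene, so a window can overlap its span or, for Hmg20b and Gse1, lie inside it. The windows are chr4:136602724-136602973 (minus strand), chr13:47043249-47043498 (plus), chr10:81350458-81350707 (minus) and chr8:120488616-120488865 (plus), taken from RefSeq on GRCm38.p6. Capitals mark matches on either strand to the GC box GGGCGG, to CCAAT and to TGGGAA, the core bound by the Notch effector RBPJ.
Kdm1a: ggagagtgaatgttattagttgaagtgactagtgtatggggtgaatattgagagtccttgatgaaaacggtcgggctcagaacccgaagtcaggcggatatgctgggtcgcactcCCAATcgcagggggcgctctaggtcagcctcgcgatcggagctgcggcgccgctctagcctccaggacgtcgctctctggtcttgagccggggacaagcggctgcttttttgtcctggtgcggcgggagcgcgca
Kdm1b: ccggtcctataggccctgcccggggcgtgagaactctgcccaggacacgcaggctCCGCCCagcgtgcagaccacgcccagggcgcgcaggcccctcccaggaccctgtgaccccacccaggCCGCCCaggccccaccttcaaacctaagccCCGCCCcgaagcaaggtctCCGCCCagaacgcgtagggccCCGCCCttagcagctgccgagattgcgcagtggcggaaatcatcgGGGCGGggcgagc
Hmg20b: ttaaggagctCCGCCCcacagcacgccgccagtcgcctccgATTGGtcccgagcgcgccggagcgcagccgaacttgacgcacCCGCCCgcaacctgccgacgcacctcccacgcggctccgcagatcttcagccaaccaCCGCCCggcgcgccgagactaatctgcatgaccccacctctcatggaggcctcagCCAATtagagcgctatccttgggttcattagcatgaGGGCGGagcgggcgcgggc
Gse1: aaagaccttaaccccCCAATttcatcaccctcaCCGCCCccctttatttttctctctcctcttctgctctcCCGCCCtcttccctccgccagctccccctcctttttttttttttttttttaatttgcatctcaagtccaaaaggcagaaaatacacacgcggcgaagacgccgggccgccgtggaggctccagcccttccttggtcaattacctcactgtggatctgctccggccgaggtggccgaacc
The Kdm1a window held 1 CCAAT match and 0 GC boxes. Kdm1b had 6 GC boxes and no CCAAT, Hmg20b had 4 GC boxes and 2 CCAAT matches, and Gse1 had 2 GC boxes and 1 CCAAT match. None of these 4 windows held TGGGAA, while the window of another Gse1 start (chr8:120535607-120535856) and both Phf21a windows held 1 match each. Among 32851 RefSeq windows of 250 bases, 32.74% held the GC box, 33.85% CCAAT and 21.59% TGGGAA, so each motif is common and the matches are a description of the letters only. Windows were found for Rcor1, Hdac2 and Phf21a too; Hdac1 was not matched.

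Depth and library quality set the precision. Read totals were 7.24 to 19.35 M per library, and 1.96 to 8.78 M reads fell in the listed genes. TrB_KO replicate 3 stood apart: 61.6% of its reads were in listed genes against 16.7% to 20.9% in the other 5 TrB libraries, and 285 listed genes were at 0. Values were therefore divided by a median-of-ratios factor per library, which ran from 0.613 to 2.14, and all levels below are such scaled FPKM, given for replicates 1, 2 and 3 in that order with means ± SD (n = 3). On the deposited scale the median log2 change over all genes was 0.52 for TrB_KO against TrB_WT and 0.67 for eMZB_WT against TrB_WT. Log2 changes are on the scale of log2(scaled FPKM + 1), which understates changes of low genes, and come from limma with Benjamini-Hochberg adjustment over all 9842 genes; a gene was called at an adjusted p under 0.05. In bulk RNA, fewer cells of a type and less RNA per cell cannot be told apart.

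The sorted cells carried the markers of their labels. All 8 B cell markers were listed, with a summed level of 1976 to 2539 in TrB libraries and 1269 to 1486 in eMZB libraries. The 5 listed of 6 transitional markers summed to 397 to 520 in TrB and to 140 to 167 in eMZB. Of these 5, 4 were called lower and 1 higher in eMZB in wild type. In knockout cells 4 were called lower, and 1 had a change above 0 and was not called. The 8 marginal zone markers summed to 181 to 221 in TrB and 389 to 440 in eMZB. The genotypes differed in part. The marginal zone sum was 181 to 205 in TrB_WT and 207 to 221 in TrB_KO, where 2 of 8 were called higher. In eMZB it was 388.7 to 416.8 in wild type and 417.4 to 440.3 in knockout. The eMZB transitional sum was 140 to 147 in wild type and 163 to 167 in knockout, and the B cell sum 1364 to 1486 and 1269 to 1316. In TrB both of these sums overlapped between the genotypes. Neutrophil, platelet and stromal markers were not among the listed genes. Of 8 T cell markers only Lck was listed, of 6 dendritic cell markers only Flt3, of 6 NK cell markers only Gzmb and of 6 erythroid markers only Hbb-bs. The 4 listed of 8 macrophage and monocyte markers (Itgam, Adgre1, Cd68 and Ly6c2) summed to 12.4 to 23.0 in wild type and to 50.6 to 64.6 in knockout libraries. That sum follows Ly6c2, which rose with LSD1 loss by 2.59 in TrB and 1.63 in eMZB (limma adjusted p = 0.00018 and 0.00571). The other 3 were not called in either cell type, and in TrB 2 of them, Cd68 and Adgre1, had changes below 0 (-0.36 and -0.51). In eMZB the changes of all 4 were above 0, with a median of 0.52. On average over the cell types, 2 of the 4 were called higher with LSD1 loss. Flt3 stood at 0.675 to 1.06 in eMZB_WT and 4.52 to 5.67 in eMZB_KO, a rise of 1.76 (adjusted p = 4.1e-05), and at 0.402 to 0.469 in TrB_KO against 0.721 to 0.864 in TrB_WT. The 5 listed of 6 plasma cell markers summed to 39.7 to 61.8 in TrB_WT and 56.7 to 106.9 in TrB_KO, and to 54.9 to 63.3 in eMZB_WT and 40.1 to 48.3 in eMZB_KO, and none was called with LSD1 loss. The part of such cells in the knockout differences below was not tested.

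Kdm1a, the targeted gene, was lower in all 6 knockout libraries than in all 6 wild-type libraries. It stood at 8.54, 7.93 and 3.47 in TrB_WT and at 3.35, 2.56 and 2.99 in TrB_KO. In eMZB_WT it was 7.53, 8.63 and 4.68, and in eMZB_KO 2.65, 2.53 and 2.66. The knockout libraries were close together, while both wild-type groups had a low replicate 3, and TrB_WT replicate 3 lay just above the highest TrB_KO library. Kdm1a was not absent from the knockout libraries, where 78 to 281 reads were assigned to it, against 77 to 370 in wild type. Where on the gene these reads lie was not analysed here.

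Averaged over the cell types, Kdm1a fell by 0.99 on the log2 scale (SE 0.18, 95% interval -1.38 to -0.59, limma adjusted p = 0.0236). It was the only member called in that comparison, in which 0.732% of the 9842 genes were called. An exact permutation test within cell type, two-sided over 400 arrangements, gave p = 0.005, the smallest it can give. Within TrB the difference was -0.87 (SE 0.26, interval -1.43 to -0.32, limma adjusted p = 0.249), from a mean of 6.65 ± 2.77 to 2.97 ± 0.39. Within eMZB it was -1.10 (SE 0.26, interval -1.66 to -0.54, adjusted p = 0.148), from 6.95 ± 2.04 to 2.62 ± 0.07. Neither difference within a cell type passed the threshold. With both wild-type replicate 3 libraries left out, the limma differences were -1.23 (adjusted p = 0.00097) and -1.33 (adjusted p = 0.00052). These libraries had the lowest Kdm1a of their groups, so leaving them out widens the Kdm1a difference in any case. Their omission is therefore no separate support for the fall. The call on the average was lost in 8 of 12 fits that left out 1 library (adjusted p 0.0647 to 0.0844), namely any wild-type library of number 1 or 2, TrB_KO replicate 2 or any eMZB_KO library. It was also lost on the deposited scale, where the difference was -0.70 (limma adjusted p = 0.563). The difference in the response between the cell types was -0.23 (interval -1.01 to 0.56, adjusted p = 0.937).

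**Figure D1:**
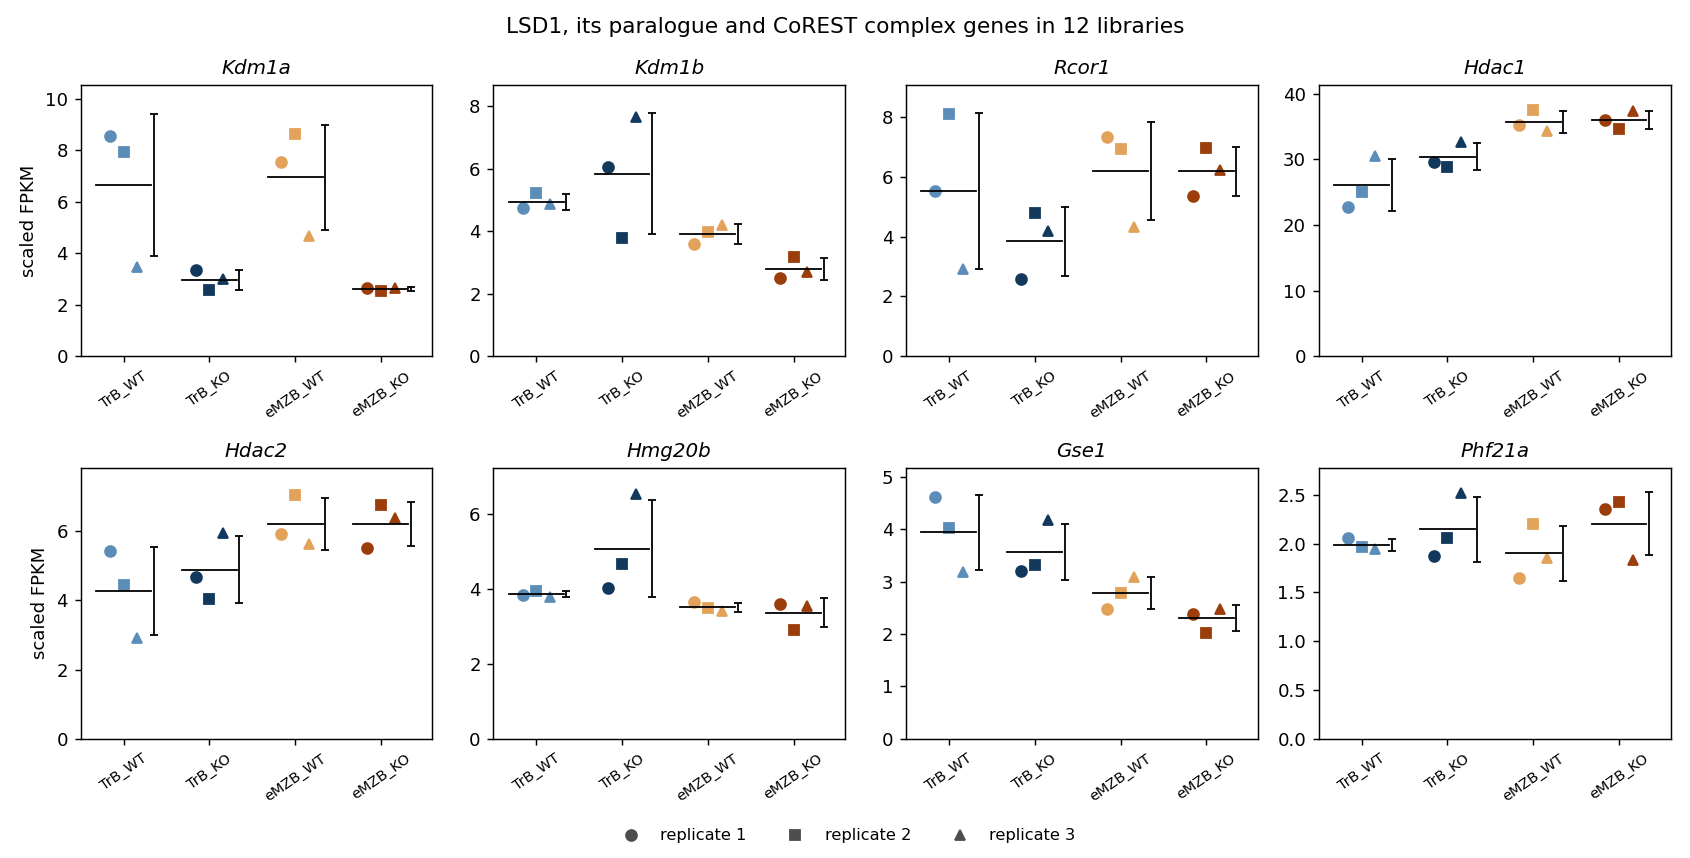
Scaled FPKM (vertical axis, from 0) of the 8 listed genes in each of the 12 libraries, by group on the horizontal axis; marks are replicates 1 to 3, lines are group means and error bars are SD (n = 3). Kdm1a is lower in all 6 knockout libraries (2.53 to 3.35) than in wild type (3.47 to 8.63), and Hdac1 is on a much higher axis than the others (22.7 to 37.5).

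No partner of Kdm1a was called for LSD1 loss in TrB, in eMZB or on average. Kdm1a included, the count was 0 of 8 in TrB and 0 of 8 in eMZB, where 0.498% and 0.406% of all genes were called. At an unadjusted p under 0.05 the counts were 3 and 1, against 9.91% and 5.39% of all genes. The 3 in TrB were Kdm1a itself, Hdac1 and Hmg20b, and the 1 in eMZB was Kdm1a, so no partner passed there. In TrB the wild-type and knockout libraries did not overlap for 2 of 8 members, Kdm1a and Hmg20b, against 10.5% of all genes. In eMZB they did not overlap for 2 of 8, Kdm1a and Kdm1b, against 18.4% of all genes. The median log2 change of the 8 members was 0.12 in TrB and -0.024 in eMZB, beside 0.006 and -0.0037 over all genes.

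Kdm1b encodes LSD2, the only other flavin-dependent histone demethylase, which acts on the same lysine but does not bind CoREST. Its levels were 4.73, 5.22 and 4.86 in TrB_WT, and 6.06, 3.79 and 7.64 in TrB_KO. The eMZB_WT levels were 3.58, 3.96 and 4.19, those of eMZB_KO 2.51, 3.18 and 2.69. The TrB_KO libraries lay on either side of wild type, whereas every eMZB_KO library was below every eMZB_WT library. In eMZB the difference with LSD1 loss was -0.37 (SE 0.17, interval -0.75 to 0.0003, limma adjusted p = 0.921), and in TrB it was 0.16 (interval -0.21 to 0.54, adjusted p = 0.777). The test of the difference between these responses gave -0.54 (interval -1.07 to -0.006, adjusted p = 0.729). 

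Rcor1, the scaffold, varied widely between the TrB_WT replicates, with a coefficient of variation of 47.1%. It stood at 5.54, 8.10 and 2.90 in TrB_WT, and at 2.57, 4.80 and 4.18 in TrB_KO. In eMZB_WT it was 7.31, 6.93 and 4.31, and in eMZB_KO 5.35, 6.96 and 6.22. Wild-type and knockout libraries overlapped in both cell types. The difference with LSD1 loss was -0.37 in TrB (interval -0.98 to 0.24, limma adjusted p = 0.669) and 0.021 in eMZB (interval -0.59 to 0.63, adjusted p = 1). Within libraries, the ratio of the Rcor1 to the Kdm1a level was 0.836 ± 0.187 in TrB_WT and 1.35 ± 0.55 in TrB_KO, and 0.898 ± 0.086 in eMZB_WT and 2.37 ± 0.37 in eMZB_KO. The lowest eMZB_KO ratio, 2.02, was above the highest eMZB_WT ratio, 0.971, while those of the TrB groups overlapped. The divisor, Kdm1a, was lower in every knockout library, and the mean of Rcor1 was 6.18 in both eMZB groups.

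Hdac1 and Hdac2 encode the catalytic deacetylases, which CoREST shares with the NuRD and Sin3 complexes. Hdac1 was 22.7, 25.1 and 30.5 in TrB_WT, and 29.6, 28.9 and 32.7 in TrB_KO. The eMZB_WT levels were 35.2, 37.5 and 34.3, those of eMZB_KO 36.0, 34.6 and 37.3. The eMZB groups lay on top of each other, and in TrB only replicate 3 of wild type reached the knockout range. Hdac1 differed with LSD1 loss by 0.22 in TrB (interval 0.0027 to 0.44, limma adjusted p = 0.496) and by 0.013 in eMZB (interval -0.21 to 0.23, adjusted p = 1). Hdac2 was 5.43, 4.45 and 2.92 in TrB_WT, and 4.68, 4.04 and 5.92 in TrB_KO. It was 5.91, 7.04 and 5.61 in eMZB_WT, and 5.51, 6.75 and 6.35 in eMZB_KO. Knockout and wild type overlapped in both cell types, with differences of 0.18 in TrB (interval -0.20 to 0.55) and 0.0051 in eMZB (interval -0.37 to 0.38). Per length, Hdac1 RNA exceeded Hdac2 RNA 6.76 ± 3.29 times in TrB_WT and 6.34 ± 0.82 times in TrB_KO, and 5.80 ± 0.41 and 5.85 ± 0.70 times in the wild-type and knockout eMZB. Its widest value, 10.5, was in TrB_WT replicate 3.

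The remaining members are accessory subunits. Hmg20b encodes BRAF35, an HMG-box protein of the complex. Its levels were 3.84, 3.94 and 3.80 in TrB_WT, and 4.02, 4.68 and 6.52 in TrB_KO. In eMZB_WT it stood at 3.64, 3.48 and 3.42, and in eMZB_KO at 3.61, 2.91 and 3.56. All 3 TrB_KO libraries were above TrB_WT, replicate 3 by far the most, whereas the eMZB groups overlapped. The difference with LSD1 loss was 0.30 in TrB (interval 0.0063 to 0.59, limma adjusted p = 0.491) and -0.053 in eMZB (interval -0.35 to 0.24).

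Gse1, a coiled-coil subunit found with CoREST, was 4.61, 4.03 and 3.19 in TrB_WT, and 3.21, 3.31 and 4.17 in TrB_KO. In eMZB_WT it was 2.47, 2.79 and 3.10, and in eMZB_KO 2.39, 2.02 and 2.48. Wild type and knockout overlapped in each cell type, although in eMZB by a single pair of libraries. Its difference with LSD1 loss was -0.11 in TrB (interval -0.40 to 0.18) and -0.20 in eMZB (interval -0.49 to 0.09). Phf21a encodes BHC80, which reads unmethylated lysine 4 of histone H3, the product of LSD1. It stayed between 1.65 and 2.52 in all 12 libraries, with differences of 0.070 in TrB (interval -0.21 to 0.35) and 0.14 in eMZB (interval -0.13 to 0.42).

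**Figure D2:**
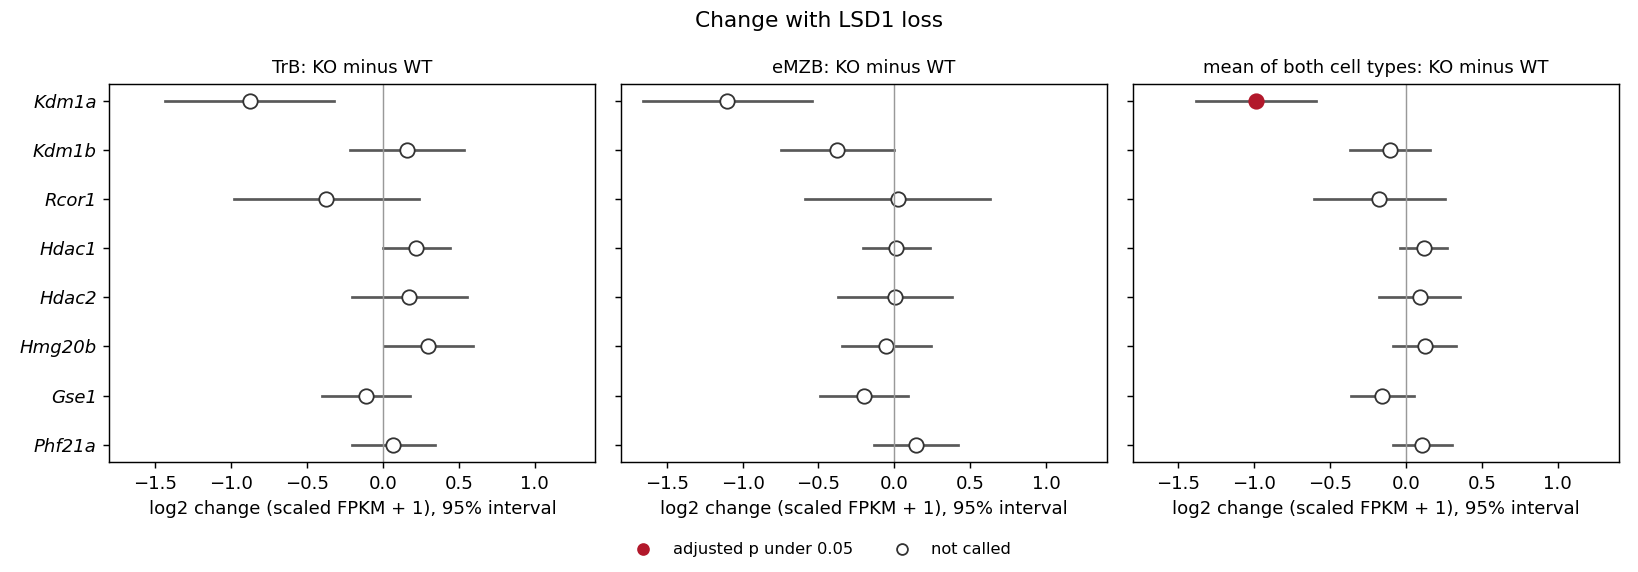
Log2 change with LSD1 loss, KO minus WT, of each member in TrB, in eMZB and as the mean of both (horizontal axis, log2 of scaled FPKM + 1); points are limma estimates and bars are 95% intervals, with filled points called. Kdm1a on average (-0.99) is the only filled point, and the intervals of the partners reach or lie close to 0.

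From transitional to marginal zone cells, the members divided. Hdac1 rose in wild type, and Kdm1b, Hmg20b and Gse1 fell in knockout cells, while Kdm1a, Rcor1, Hdac2 and Phf21a were called in neither genotype. The counts were 1 of 8 members in wild type and 3 of 8 in knockout cells, where 27.4% of all genes were called in wild type and 27.4% in knockout. Libraries of the cell types did not overlap for 5 of 8 members in wild type, against 45.1% of all genes, and for 5 of 8 in knockout cells, against 43.9%. With 8 members, these counts set the complex apart from the rest of the table in neither genotype. Their median log2 change was 0.025 in wild type and -0.051 in knockout cells, beside -0.0016 and -0.0085 over all genes. The cell types also differ by culture, cytokines and sorting gate, which cannot be told apart here.

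Hdac1 was the member called in wild type. It rose by 0.45 from TrB_WT to eMZB_WT (SE 0.10, interval 0.23 to 0.67, limma adjusted p = 0.00606), from 26.1 ± 4.0 to 35.7 ± 1.7, with every eMZB library above every TrB library. The call held in all 12 fits without 1 library. In knockout cells Hdac1 differed by 0.24 (interval 0.018 to 0.46, adjusted p = 0.104), also without overlap. Hdac2 was higher by 0.47 in wild type (interval 0.10 to 0.85, limma adjusted p = 0.0617) and by 0.30 in knockout cells (interval -0.08 to 0.68, adjusted p = 0.230). Its wild-type libraries did not overlap between the cell types, those of the knockout did.

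Kdm1b fell in knockout cells by 0.81 from TrB to eMZB (SE 0.17, interval -1.19 to -0.44, limma adjusted p = 0.00407), from 5.83 ± 1.94 to 2.79 ± 0.35. That call also held in all 12 fits without 1 library, but not on the deposited scale (-0.61, adjusted p = 0.569). In wild type the difference was -0.27 (interval -0.65 to 0.10, limma adjusted p = 0.260), again without overlap. Dek, a chromatin gene on the opposite strand, shares 505 exon bases with Kdm1b. From TrB to eMZB Dek rose in wild type by 0.37 (limma adjusted p = 0.0104) and differed by 0.024 in knockout cells. With LSD1 loss Dek was higher in TrB by 0.39 (limma adjusted p = 0.139), without overlap, and differed by 0.040 in eMZB. The libraries do not mark strand, so reads from the shared bases cannot be told apart.

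Hmg20b fell in knockout cells by 0.46 (SE 0.14, interval -0.75 to -0.17, limma adjusted p = 0.0234), from 5.07 ± 1.30 to 3.36 ± 0.39. Without TrB_KO replicate 3 the change was -0.28 (adjusted p = 0.0766), and without eMZB_KO replicate 2 it was -0.38 (limma adjusted p = 0.101). In fits of the knockout groups alone its adjusted p was 0.0657, or 0.0531 with the replicate number as a block. In wild type Hmg20b differed by -0.11 (interval -0.40 to 0.19), from 3.86 ± 0.07 to 3.51 ± 0.12, without overlap. Gse1 fell in knockout cells by 0.47 (SE 0.13, interval -0.76 to -0.17, limma adjusted p = 0.0211), from 3.56 ± 0.53 to 2.30 ± 0.25. Its call was lost without TrB_KO replicate 3 (adjusted p = 0.0736), eMZB_KO replicate 1 (adjusted p = 0.0508) or eMZB_KO replicate 2 (adjusted p = 0.0878). In wild type Gse1 differed by -0.38 (interval -0.67 to -0.09, limma adjusted p = 0.0535), without overlap. Gins2, a replication gene on the opposite strand that shares 2758 exon bases with Gse1, was higher in eMZB by 0.71 in wild type (adjusted p = 0.0572) and by 0.67 in knockout cells (adjusted p = 0.0717). On the deposited scale neither Hmg20b (-0.26, adjusted p = 0.896) nor Gse1 (-0.28, adjusted p = 0.863) was called.

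Rcor1 was higher in every eMZB_KO than in every TrB_KO library, by 0.59 (interval -0.018 to 1.20, limma adjusted p = 0.144). In fits of the knockout groups alone its adjusted p was 0.0467 without the replicate block and 0.0134 with it. In wild type it differed by 0.20 (interval -0.41 to 0.80). Kdm1a itself differed between the cell types by 0.10 in wild type (interval -0.46 to 0.65) and by -0.13 in knockout cells (interval -0.69 to 0.43), and Phf21a by -0.047 and 0.026. The response to LSD1 loss was not called different between the cell types for any of the 8 members; 0.0102% of all genes, 1 gene, was called, and 1 member, Kdm1b, had an unadjusted p under 0.05 against 6.85% of all genes.

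**Figure D3:**
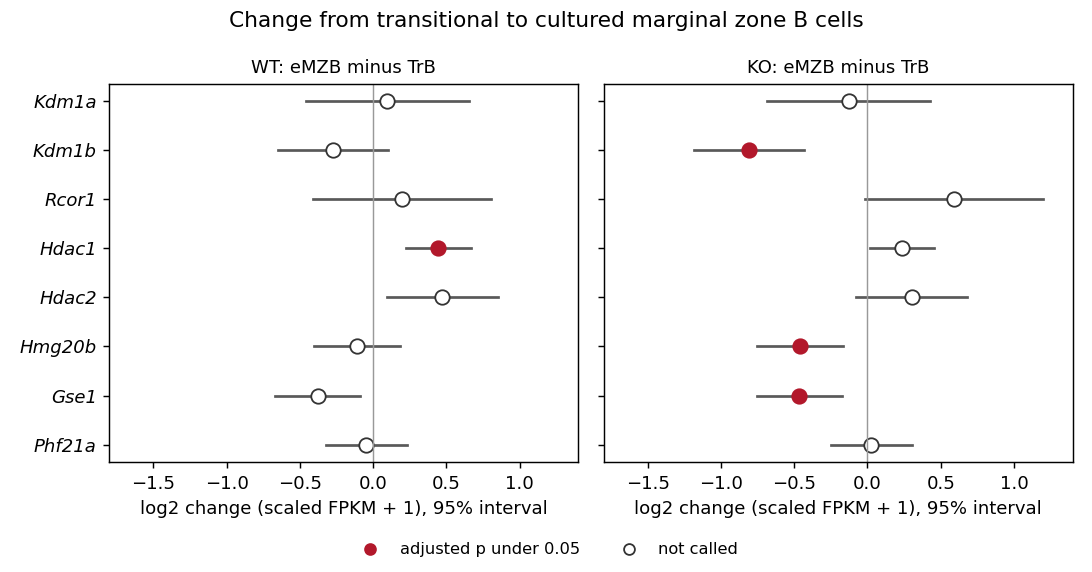
Log2 change from TrB to eMZB of each member in wild type and in knockout cells (horizontal axis, log2 of scaled FPKM + 1); points are limma estimates, bars are 95% intervals and filled points were called. Hdac1 (0.45) is filled in wild type, and Kdm1b (-0.81), Hmg20b (-0.46) and Gse1 (-0.47) in knockout cells.

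In the order of levels per length, Hdac1 came first and Phf21a last in all 4 groups. Hdac1 never overlapped the next gene, and Phf21a overlapped the gene above it, Gse1, in eMZB_KO alone. Kdm1a was second in TrB_WT and in eMZB_WT, where it overlapped Rcor1 and Hdac2 respectively. It was in place 7 in TrB_KO, overlapping Gse1 above it, and in place 6 in eMZB_KO, overlapping Kdm1b above it. Among all genes of the table the mean of Kdm1a lay at percentile 66.1 in TrB_WT and 36.5 in TrB_KO, and at 66.6 in eMZB_WT and 32.3 in eMZB_KO. Hdac1 lay between percentiles 93.5 and 95.6. The ratio of Kdm1b to Kdm1a within libraries was 0.870 ± 0.461 in TrB_WT and 1.95 ± 0.55 in TrB_KO, and 0.610 ± 0.248 in eMZB_WT and 1.07 ± 0.16 in eMZB_KO. In both cell types each knockout ratio was above each wild-type ratio. Kdm1a, the divisor, was itself lower in every knockout library, which raises the ratio whatever Kdm1b does. The mean of Kdm1b was 4.93 in TrB_WT and 5.83 in TrB_KO, and 3.91 in eMZB_WT and 2.79 in eMZB_KO.

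Replicate 3 of wild type ranked lowest of its group in more than Kdm1a, for some genes by a small margin. TrB_WT replicate 3 had the lowest Kdm1a, Rcor1, Hdac2, Hmg20b, Gse1 and Phf21a of its group and the highest Hdac1. Its Hmg20b (3.80 against 3.84 and 3.94) and Phf21a (1.95 against 1.96 and 2.06) were close to the other replicates. In eMZB_WT, replicate 3 had the lowest Kdm1a, Rcor1, Hdac2, Hdac1 and Hmg20b and the highest Kdm1b and Gse1. There Hdac2 (5.61 against 5.91), Hdac1 (34.3 against 35.2) and Hmg20b (3.42 against 3.48) were close to the next library. The share of all genes lowest in these libraries was not counted. Both were used under their labels, and whether the Kdm1a gene was intact in their cells was not tested. Without both libraries, Rcor1 and Hdac1 joined Kdm1b, Hmg20b and Gse1 among the members called between the knockout groups, a comparison that the omission touches through the shared spread and the scaling alone.

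The genes whose pattern over the 12 libraries was most like that of Kdm1a were Arf3 (Pearson r = 0.94), Pink1 (0.87), Tagap1 (0.73), Ndufaf8 (0.72) and Itfg1 (0.72), of 4414 genes with a mean of at least 5. Arf3 encodes a small GTPase of the Golgi, and Pink1 a kinase of mitochondrial quality control. Arf3 was 14.2, 14.5 and 9.36 in TrB_WT and 8.60, 8.72 and 9.67 in TrB_KO, then 14.5, 15.6 and 14.3 in eMZB_WT and 8.60, 7.48 and 8.25 in eMZB_KO. Like Kdm1a it was low in TrB_WT replicate 3, which overlapped the knockout libraries. These genes were picked for their likeness to Kdm1a in the same libraries, so low values there and in knockout cells were selected for. The p-values of Arf3 and Pink1 are therefore no separate support. Arf3 fell with LSD1 loss in eMZB by 0.79 (SE 0.14, interval -1.09 to -0.50, limma adjusted p = 0.0250) and on average by 0.61 (SE 0.10, adjusted p = 0.00841). Without any 1 of the 6 eMZB libraries its eMZB call was lost. Pink1, on chromosome 4 from 138313409 to 138326296 and 1.711 Mb from Kdm1a, was 11.2, 13.3 and 5.28 in TrB_WT and 8.98, 7.58 and 6.93 in TrB_KO. In eMZB_WT Pink1 was 11.3, 12.01 and 9.33, and in eMZB_KO 7.26, 6.56 and 7.46. Its TrB groups overlapped and its eMZB groups did not, and the eMZB difference was -0.55 (interval -1.06 to -0.04, limma adjusted p = 0.879).

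**Figure D4:**
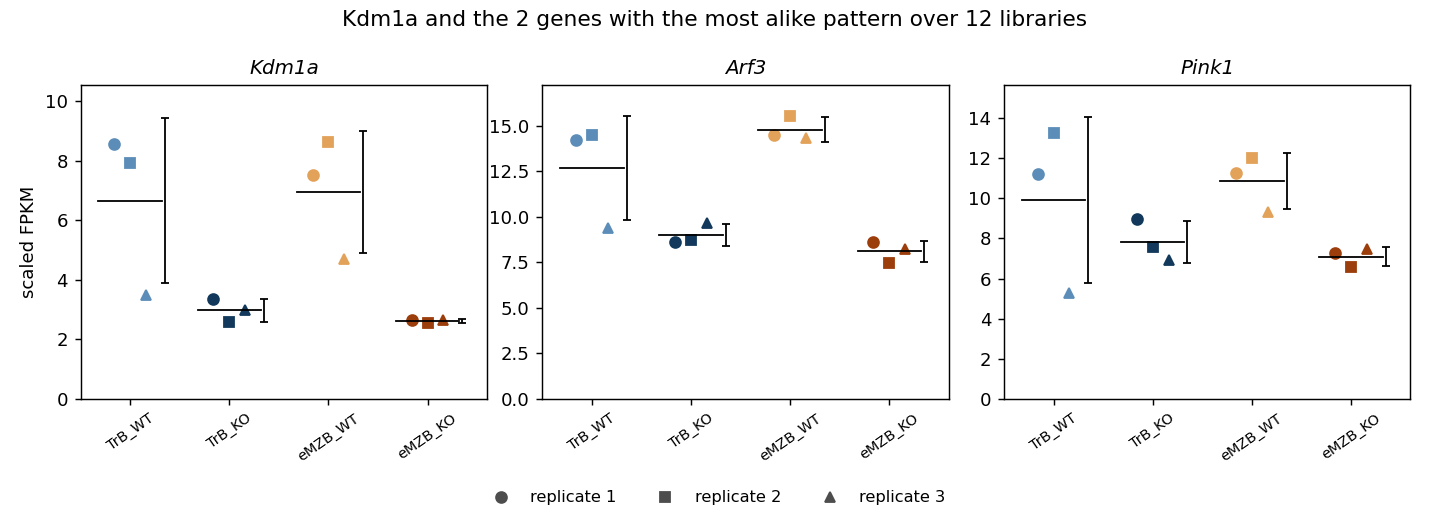
Scaled FPKM (vertical axis, from 0) of Kdm1a, Arf3 and Pink1 in the 12 libraries by group; marks are replicates, lines are means and error bars are SD (n = 3). In eMZB each gene is lower in all knockout libraries, and in TrB_WT each has its lowest value in replicate 3. Arf3 and Pink1 were picked for their likeness to Kdm1a in these libraries.

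Other proteins of the same machinery were followed as lists. Of the further CoREST-associated subunits, 7 of 9 were listed, and none was called with LSD1 loss in either cell type. Of the DNA-binding factors known to recruit LSD1, 6 of 11 were listed. Prdm1, the plasma cell repressor BLIMP1, rose in wild type by 0.66 (limma adjusted p = 0.00319), from a mean of 0.627 to 1.57. Zeb2, a repressor of E-box promoters, fell by 0.61 in wild type and 0.55 in knockout cells, with a wild-type change of 0.064 on the deposited scale. Among the 3 genes of LSD1 ubiquitin turnover, Jade2, described as a ligase of LSD1, rose by 0.57 in wild type and 0.65 in knockout cells. Its levels were low, with means of 0.398 and 1.06 in wild type and 0.302 and 1.04 in knockout cells. The wild-type call was lost with a pseudocount of 0.1 (limma adjusted p = 0.0578). The knockout call was lost in the fits of the knockout groups alone (limma adjusted p = 0.0915 with the replicate block).

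In the other complexes that hold HDAC1 and HDAC2, most genes were not called between the cell types, where 27.4% of all genes were called in each genotype. The separate list of HDAC3, HDAC8 and NCoR genes was not so: 3 of its 6 genes were not called in wild type and 2 in knockout cells. Of 12 listed NuRD subunits (13 in the list), 3 rose in wild type (Rbbp7 by 0.83, Rbbp4 by 0.44 and Mta1 by 0.71) and none fell. In knockout cells 4 rose (Cdk2ap1 by 1.38, Rbbp7 by 0.66, Chd3 by 0.54 and Rbbp4 by 0.47), and none fell. RBBP4 and RBBP7 are histone-binding subunits shared by several complexes. The median over the 12 was 0.23 in wild type and 0.38 in knockout cells. Mta1, low at 0.547 and 1.53, was called in 8 of 20 alternatives. Of 14 listed genes of Sin3 and further deacetylase complexes, 1 rose (Mier2 by 0.35) and 3 fell (Mier1 by 0.58, Mier3 by 0.51 and Ing1 by 0.29) in wild type. On the deposited scale all 3 of these falls were of the opposite sign (0.083, 0.14 and 0.42). In knockout cells Mier1 fell by 0.55 and Sap30 by 0.53. Of 6 genes of HDAC3, HDAC8 and the NCoR complex, Tbl1xr1 (0.45) rose and Hdac8 (-0.54) and Gps2 (-0.52) fell in wild type, the falls with the opposite sign on the deposited scale (0.091 and 0.31). In knockout cells Tbl1xr1 (0.44) rose and Gps2 (-0.54), Hdac8 (-0.46) and Tbl1x (-0.38) fell. The Hdac8 call was lost with the replicate block (adjusted p = 0.060).

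Many of these calls between the cell types were lost when 1 library was left out, also where the change hardly moved. Ing1 in wild type lost its call even without an eMZB_KO library, whichever it was, with the change still at -0.29. In wild type the calls of Mta1, Ing1, Mier2, Mier3, Hdac8, Gps2 and Jade2 were each lost in at least 1 fit without 1 wild-type library. Ing1 was called in 5 of 20 alternatives, Mier2 in 12, Mier3 and Jade2 in 15 and Hdac8 in 14 of 20, and Gps2 in 14 of 21. In knockout cells the calls of Cdk2ap1, Chd3, Sap30, Hdac8, Tbl1x and Gps2 were each lost in at least 1 fit without 1 knockout library. Hdac8 was called there in 12 of 21 alternatives, and Tbl1x and Gps2 in 16 of 22. Rbbp4, Rbbp7 and Tbl1xr1 were called in all 21 alternatives in wild type, and in knockout cells in all but the deposited scale.

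With LSD1 loss, 1 gene of all these lists was called. Sap30, a Sin3 subunit, rose in TrB by 0.82 (SE 0.14, interval 0.51 to 1.13, limma adjusted p = 0.0238), from a mean of 1.37 to 3.20. That call was lost in 12 of 20 alternatives, 7 of them fits without 1 library (TrB_WT replicate 1 or 3, TrB_KO replicate 2 or 3, eMZB_WT replicate 1, or eMZB_KO replicate 1 or 2; adjusted p 0.0529 to 0.0880).

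Some members share sequence or exons with other genes, which limits their values. Of all 50-base stretches in the transcripts of a member, 35.5% for Hdac1 occurred in other genes as well, most often in Gm10093. The shares were 27.0% for Gse1, 8.16% for Kdm1b and 0.089% for Rcor1, and 0 for Kdm1a, Hdac2, Hmg20b and Phf21a. How reads from such stretches were assigned is not given in the sources used here, so the levels of Hdac1, Gse1 and Kdm1b are uncertain by an amount that was not measured.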

How the data were processed

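RNA of 12 libraries of mouse B cells, 3 in each of 4 groups, was sequenced after SMART-Seq v4 amplification and Nextera XT library preparation, per the labels' protocols. Such libraries carry no strand mark. STAR and mm10 were used, per the submitters' processing notes; which version, counting program and annotation were used is not stated there or in the labels. For 9842 genes with Entrez IDs the authors deposited FPKM per library in 1 table. IDs were matched to symbols through the reference gene tables; 9 had no symbol and stayed in the tests.

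FPKM were divided by a median-of-ratios factor per library. limma (3.58.1, R 4.3.3; lmFit, eBayes with trend) was run on log2(scaled FPKM + 1) with 4 group means, 12 libraries and 8 residual degrees of freedom, with Benjamini-Hochberg adjustment over all 9842 genes and a threshold of 0.05, two-sided. The code was tested on simulated data. Whole read numbers were recovered from the FPKM steps, for depth and for a check with voom. For each of the 9842 genes the shortest length that gave whole reads within a set tolerance of 0.02 was taken. That tolerance is a rule of the search and no measure of accuracy. Of 197 listed microRNA and snoRNA genes, 177 had a recovered length equal to that of RefSeq. The library totals were set from these same genes, so the match is no separate check. As no molecular identifiers were used, reads are not independent molecules and bound counting error alone. The members, the other lists, the markers and the median-of-ratios scaling were chosen with earlier results of these data known. Named were all members in every comparison, the called genes of the other lists (some list genes are not reported here and are left out of the counts), and the 5 genes with the highest Pearson r with Kdm1a among genes with a mean of at least 5 scaled FPKM. Alternatives were the deposited scale, upper-quartile scaling, a pseudocount of 0.1, a mean of at least 5, each library left out, both wild-type replicate 3 libraries left out, only the groups compared, voom and the replicate block.

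The labels number replicates 1 to 3 and give no meaning to the number. Deviations from group means of libraries with the same number correlated at 0.161, 0.106 and 0.292 between TrB_KO and eMZB_KO, all over 0.1, and not all over 0.1 for the other pairs of groups. Between TrB_KO and eMZB_KO, libraries with different numbers correlated at -0.25 to 0.12. The highest of these, TrB_KO replicate 1 with eMZB_KO replicate 2, was above the 0.106 of a same-number pair. The pairing of the knockout groups therefore comes from the data alone and is uncertain.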

Additional observations from a re-analysis of the deposited data

How the results depend on the processing

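Below, loss stands for LSD1 loss. Over the alternatives, most values kept their direction and their side of the threshold. No alternative gave a called member a change of the opposite sign in the comparison where it was called. The Kdm1a difference on average stayed negative in all 19 alternatives, from -1.28 to -0.70. The call of Hdac1 in wild type held in all 21 alternatives, and that of Kdm1b in knockout cells in all but the deposited scale. Wide intervals limit the partners, so a change of the size seen for Hmg20b or Gse1 could be missed in Rcor1. The cause of each lost or gained call was not tested. With the replicate number as a block in the fit of all groups, 39 genes were called for loss in TrB, 27 in eMZB and 60 on average. That block changed the call of no member. In fits of the knockout groups alone, with the block (chosen after seeing the data) or without it, 3 members were called, with Rcor1 gained and Hmg20b lost. Of the other lists, Hdac8 between the knockout groups lost its call with the block in the fit of all groups and Jade2 in the fits of the knockout groups alone, and Ing1 in wild type and Arf3 for loss in eMZB lost theirs with the block.

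On the deposited scale, the genes called numbered 19 for loss in TrB, 15 for loss in eMZB, 46 for loss on average, 460 for eMZB_KO against TrB_KO and 15 for the difference in response. The members called numbered 0 for loss on average, 2 for eMZB_WT against TrB_WT and 0 for eMZB_KO against TrB_KO. The Kdm1a difference of -0.70 had an exact permutation p of 0.065. Changes of the opposite sign were Rcor1 0.17 and Gse1 0.41 for loss in TrB and Hmg20b 0.0053 for loss in eMZB. Others were Kdm1b 0.19, Rcor1 0.13 and Gse1 0.13 for loss on average and Kdm1b 0.42, Hmg20b 0.56, Gse1 0.28, Phf21a 0.50, Zeb2 0.064, Ing1 0.42, Mier1 0.083, Mier3 0.14, Hdac8 0.091 and Gps2 0.31 for eMZB_WT against TrB_WT. Others were Kdm1a 0.072 for eMZB_KO against TrB_KO and Rcor1 -0.083 and Phf21a -0.32 for the difference in response. With only genes of a mean of at least 5 scaled FPKM, which keeps 3 of the members (Rcor1, Hdac1 and Hdac2), the genes called numbered 31 for loss in TrB, 23 for loss in eMZB, 39 for loss on average, 1634 for eMZB_WT against TrB_WT, 1723 for eMZB_KO against TrB_KO and 0 for the difference in response. The members called numbered 0 for loss on average, 2 for eMZB_WT against TrB_WT and 0 for eMZB_KO against TrB_KO. Without both wild-type replicate 3 libraries, the genes called numbered 23 for loss in eMZB and 2 for the difference in response. The members called numbered 1 for loss in TrB, 1 for loss in eMZB, 2 for eMZB_WT against TrB_WT and 5 for eMZB_KO against TrB_KO. Changes of the opposite sign were Hdac2 -0.025 for loss in TrB and Rcor1 -0.18, Hdac1 -0.013 and Hdac2 -0.052 for loss in eMZB. Others were Hdac2 -0.039 for loss on average and Kdm1a -0.032 for eMZB_WT against TrB_WT. Others were Gse1 0.090 for the difference in response. With only the groups compared, the genes called numbered 9 for loss in TrB and 65 for loss in eMZB. The members called numbered 1 for loss in eMZB. Without those 2 libraries and TrB_KO replicate 3, chosen after seeing the data, the genes called numbered 115 for loss in TrB, 68 for loss in eMZB, 188 for loss on average and 2 for the difference in response. The members called numbered 1 for loss in TrB, 1 for loss in eMZB, 2 for eMZB_WT against TrB_WT and 5 for eMZB_KO against TrB_KO. Changes of the opposite sign were Kdm1b -0.040, Hdac2 -0.15 and Phf21a -0.024 for loss in TrB and Rcor1 -0.18, Hdac1 -0.009 and Hdac2 -0.047 for loss in eMZB. Others were Hdac2 -0.097 for loss on average and Kdm1a -0.021 for eMZB_WT against TrB_WT. Others were Hdac2 0.10 and Gse1 0.18 for the difference in response. With voom on the recovered reads, the genes called numbered 21 for loss in TrB. The members called numbered 2 for eMZB_WT against TrB_WT. Changes of the opposite sign were Kdm1a -0.017 for eMZB_WT against TrB_WT and Phf21a -0.035 for eMZB_KO against TrB_KO. With upper-quartile scaling, the members called numbered 2 for eMZB_WT against TrB_WT.

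Leaving out 1 library at a time gave counts of called genes of 28 to 54 for loss in TrB, 15 to 52 for loss in eMZB, 45 to 82 for loss on average and 1 to 5 for the difference in response. The members called then numbered 0 to 1 for loss in TrB, 0 to 1 for loss in eMZB, 0 to 1 for loss on average, 1 to 3 for eMZB_WT against TrB_WT and 1 to 4 for eMZB_KO against TrB_KO. Ranges that crossed 0 were Hdac2 -0.023 to 0.34, Kdm1b -0.028 to 0.40 and Phf21a -0.012 to 0.14 for loss in TrB. For loss in eMZB they were Hdac2 -0.052 to 0.087, Rcor1 -0.18 to 0.14, Hdac1 -0.014 to 0.047 and Hmg20b -0.095 to 0.022. For loss on average they were Hdac2 -0.0086 to 0.17 and Kdm1b -0.20 to 0.010. For eMZB_WT against TrB_WT they were Kdm1a -0.26 to 0.32, Rcor1 -0.14 to 0.48 and Phf21a -0.12 to 0.015. For eMZB_KO against TrB_KO they were Phf21a -0.040 to 0.12. For the difference in response they were Kdm1a -0.45 to 0.12, Hdac2 -0.33 to 0.030 and Gse1 -0.19 to 0.029.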
